A study of Mus musculus with 12 samples.

Results

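The 10 genes described here, B4galnt4, Sema4f, Gstm1, Trerf1, Matk, Map3k5, Maml2, Slc41a1, Ablim1, and Etv6, had higher mRNA levels in Th17 cells and lower mRNA levels in iTreg cells than in Th0 cells. They were picked by name for these opposite directions, out of 10886 genes listed in both deposited expression tables. Because the Th17 and iTreg values of these genes were what chose them, their differences from Th0 cells are given as a description and without a test. Both comparisons use the same Th0 libraries, so that a Th0 level that is high or low by itself enters both differences.

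RNA-seq was performed on murine CD4+ T cells from 4 independent cultures per condition, which gave 12 libraries. Naive CD4+CD62L+ T cells had been isolated from the spleens of C57BL/6 mice aged 8 to 10 weeks and cultured for 3 days on plate-bound anti-CD3 and with anti-CD28, each at 1 μg/ml, in all 3 groups. Th0 cells received nothing more, Th17 cells also received 30 ng/ml IL6, 5 ng/ml TGFβ1, and neutralizing antibodies against IL4 and IFNγ at 10 μg/ml, and iTreg cells also received 10 ng/ml IL2 and, by the sample labels, 10 ng/ml TGFβ1. TGFβ1 is thus shared by both polarized groups, at unequal concentrations, and the groups are in vitro cultures of a mixed cell population, in which fewer cells of a type and less RNA per cell cannot be told apart. Levels are in FPKM, in which fragments are scaled by the length of the transcript and the size of the library, and which had been calculated separately for the Th17 and the iTreg table. The 4 Th0 libraries carry values that are 0.886% to 1.21% higher in the Th17 table, and Th17 and iTreg cells were therefore each compared with Th0 cells within their own table. Libraries are named by their column headings, such as M22_5, whose ending gives the group (_1 for Th0, _5 for Th17, and _4 for iTreg).

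Whole reads per gene could be recovered from the steps of the FPKM values for 99.9% of the listed genes, and the libraries held between 6819080 and 10046440 such reads. Of the Th17 marker genes, Il17a had a mean of 0.029 FPKM in Th0 and 29.1 FPKM in Th17 libraries, Il17f of 0.124 and 482 FPKM, and Ahr of 1.36 and 66.7 FPKM. These markers were not confined to Th17 cells. In the iTreg table, Il17f had a mean of 0.123 FPKM in Th0 and 57.6 FPKM in iTreg libraries, and Ahr of 1.34 and 9.52 FPKM. The 6 iTreg marker genes (Foxp3, Il2ra, Ctla4, Itgae, Ikzf4, and Nrp1) summed to 136 to 243 FPKM in Th0 libraries and 477 to 758 FPKM in iTreg libraries, with Foxp3 alone at a mean of 75.2 FPKM in iTreg cells. Il2ra had means of 133 FPKM in Th0 and 442 FPKM in iTreg libraries, Ctla4 of 38.4 and 52.9 FPKM, and Nrp1 of 11.6 and 13.6 FPKM. The same sum was also higher in Th17 libraries, at 378 to 604 FPKM beside 137 to 246 FPKM in Th0 libraries, with Ctla4 at a mean of 133 FPKM in Th17 cells. Foxp3 varied widely between Th17 libraries, at 12.0 ± 20.4 FPKM (SD, n = 4) beside 4.90 ± 2.58 FPKM in Th0 libraries. Its log2(FPKM + 1) difference in Th17 cells was -0.17 (SE 0.99). Of 5 listed CD4 T cell markers, which include Cd3e and Cd4, the summed level was 919 to 1758 FPKM in Th0 and 759 to 1266 FPKM in Th17 libraries of the Th17 table. Cd4 itself had a mean of 208 FPKM in Th0 and 68.1 FPKM in Th17 libraries, and Cd3e of 241 and 202 FPKM, whereas Lck had 266 and 333 FPKM. None of 3 NK cell markers was listed in either table, and 1 of 4 B cell markers (Cd79a, at most 3.84 FPKM) and 1 of 6 macrophage and dendritic cell markers (Cd68, at most 15.9 FPKM) were. The Cd68 level was 3.22 to 4.90 FPKM in Th0 and 5.46 to 15.9 FPKM in Th17 libraries of the Th17 table, and 2.61 to 7.19 FPKM in iTreg libraries. Its part in the results was not tested.

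Th17 cells are a T helper lineage that is induced by IL6 together with TGFβ and secretes IL17 cytokines, whereas TGFβ with IL2 directs naive T cells into induced regulatory T (iTreg) cells that depend on the transcription factor FOXP3. The 10 genes do not belong to a common pathway. B4galnt4 and Sema4f act in the secretory route and at the cell surface, Slc41a1 encodes a magnesium carrier of the plasma membrane, Gstm1 a cytosolic glutathione transferase, and Ablim1 an actin-binding LIM protein. Map3k5 and Matk encode kinases, Maml2 a coactivator of Notch receptors, and Trerf1 and Etv6 factors that act on transcription in the nucleus.

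The genes lie on 8 chromosomes of GRCm38 (mm10), with Sema4f and Etv6 both on chromosome 6 and Map3k5 and Matk both on chromosome 10. Promoter windows, from 250 bases before to 50 after a transcription start, were taken from RefSeq (GRCm38.p6) and matched all 10 genes, with 17 windows in total. The 250 bases before the start are printed for B4galnt4, Sema4f, and Gstm1, which had the largest Th17 to Th0 ratios, and for Maml2, which had the second largest difference in iTreg cells. Each is written 5′ to 3′ on the strand of the gene, and capitals mark matches to any of the 8 motifs named after them.
B4galnt4, chr7:141060728-141060977 (plus strand): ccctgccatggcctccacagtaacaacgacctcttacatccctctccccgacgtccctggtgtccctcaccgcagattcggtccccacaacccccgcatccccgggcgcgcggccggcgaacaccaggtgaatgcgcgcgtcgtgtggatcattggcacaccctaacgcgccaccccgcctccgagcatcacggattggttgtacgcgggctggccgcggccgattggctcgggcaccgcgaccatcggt
Sema4f, chr6:82939770-82940019 (minus strand): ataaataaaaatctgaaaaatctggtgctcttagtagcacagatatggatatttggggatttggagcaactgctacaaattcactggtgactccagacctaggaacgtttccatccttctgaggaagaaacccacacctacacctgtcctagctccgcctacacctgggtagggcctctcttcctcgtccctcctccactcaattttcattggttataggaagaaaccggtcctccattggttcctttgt
Gstm1, chr3:108017974-108018223 (minus strand): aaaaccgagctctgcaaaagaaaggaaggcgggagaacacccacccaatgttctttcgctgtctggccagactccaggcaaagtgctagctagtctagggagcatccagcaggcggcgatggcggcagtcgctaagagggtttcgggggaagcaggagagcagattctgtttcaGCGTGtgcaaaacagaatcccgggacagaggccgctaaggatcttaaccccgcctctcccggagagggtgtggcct
Maml2, chr9:13297708-13297957 (plus strand): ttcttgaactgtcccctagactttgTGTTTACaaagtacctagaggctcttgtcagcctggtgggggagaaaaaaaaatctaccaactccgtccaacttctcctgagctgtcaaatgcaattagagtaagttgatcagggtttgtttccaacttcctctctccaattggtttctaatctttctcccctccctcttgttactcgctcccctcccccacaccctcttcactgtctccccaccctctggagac

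The 8 motifs were searched on both strands of the whole windows, and matches are a description of letters only. GCGTG, the core of the element bound by the aryl hydrocarbon receptor, was found in 8 of the 17 windows and in 32.4% of all 32851 promoter windows. The 8 windows belong to 6 of the 10 genes (B4galnt4, Gstm1, Matk, Map3k5, Ablim1, and Etv6), and those of Gstm1 overlap and share their match. GCGTG is the motif in capitals in the Gstm1 sequence, and the B4galnt4 matches lie in the bases after the start that are not printed. AGGTCA, a hexamer bound by many nuclear receptors, occurred in 3 of the 17 windows (of Gstm1, Trerf1, and Maml2) and in 16.3% of all windows. The FOX motif GTAAACA was seen in 1 of the 17 windows, of Maml2, where it is the match in capitals on the opposite strand, and in 3.65% of all windows. TTCNNNGAA, the STAT motif, was present in 1 of the 17 windows (Etv6) and in 8.30% of all windows, and TGANTCA, the AP-1 motif, in 1 (Ablim1) and in 7.81%. TGTGGT, the RUNX motif, occurred in 2 of the 17 windows (of Gstm1 and Ablim1) and in 16.8% of all windows. Neither the ETS motif CCGGAA (14.9% of all windows) nor the palindromic SMAD element GTCTAGAC (0.213%) was found in any window of the 10 genes. The GC content of the 17 windows ranged from 45.0% to 79.7%, with a median of 56.7%, beside a median of 52.7% over all windows.

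B4galnt4 encodes an enzyme that adds N-acetylgalactosamine to N-acetylglucosamine at the ends of glycans, and it lies on chromosome 7 (141061104 to 141072400, plus strand). Its level was 1.03, 2.38, 1.43, and 1.38 FPKM in the Th0 libraries M22_1, M29_1, M42_1, and M43_1. In the Th17 libraries M22_5, M29_5, M42_5, and M43_5 it was 17.3, 18.5, 14.6, and 15.2 FPKM. The lowest Th17 library was thus far above the highest Th0 library, and of the 10 genes B4galnt4 had the highest ratio of mean levels, 10.6. In the iTreg libraries M22_4, M29_4, M42_4, and M43_4 it was at 0.118, 0.652, 0.322, and 0.360 FPKM, all below every Th0 library. These iTreg values rest on 4 to 20 reads per library, beside 24 to 58 reads in Th0 and 397 to 553 reads in Th17 libraries. On the log2(FPKM + 1) scale, where differences between low levels appear smaller than they are, the difference from Th0 was 2.79 (SE 0.16) in Th17 cells and -0.89 (SE 0.18) in iTreg cells.

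Sema4f, on chromosome 6 (82911885 to 82939769, minus strand), encodes a transmembrane semaphorin, a family of guidance molecules that signal through plexins. Th0 libraries were at 2.74, 3.20, 2.11, and 3.12 FPKM, in the same order of headings. Th17 libraries were at 19.4, 17.5, 14.6, and 11.3 FPKM, and iTreg libraries at 1.24, 1.29, 1.04, and 1.96 FPKM. The 3 groups of libraries did not overlap, and the mean level was 5.63 times that of Th0 cells in Th17 cells and 0.501 times in iTreg cells. The log2 difference was 2.12 (SE 0.18) in Th17 and -0.66 (SE 0.15) in iTreg cells, with 47 to 88 reads per iTreg library.

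Slc41a1 encodes a magnesium transporter, on chromosome 1 (131827493 to 131848865, plus strand). It was expressed more strongly, at 17.8, 15.6, 18.2, and 18.2 FPKM in Th0 libraries and 38.4, 34.8, 23.5, and 29.6 FPKM in Th17 libraries. The Th17 libraries were at 1.29 (M42) to 2.23 (M29) times the Th0 library with the same beginning of the heading, and M42_5 was the lowest of them. In iTreg libraries the level was 12.7, 14.2, 11.9, and 14.4 FPKM, which is below the lowest Th0 library by a small margin. Slc41a1 had the smallest difference of the 10 genes in iTreg cells, -0.35 (SE 0.10) on the log2 scale, beside 0.80 (SE 0.15) in Th17 cells.

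Gstm1, a mu-class glutathione transferase that conjugates glutathione to electrophilic compounds, lies on chromosome 3 (108012255 to 108017973, minus strand) next to other members of its class. Near-identical copies of this family share sequence, and the sources do not state how reads that fit several copies were counted. Th0 libraries were at 2.06, 1.18, 1.09, and 1.57 FPKM. Th17 libraries were at 2.94, 6.34, 13.0, and 4.89 FPKM, so that M42_5 stood above and M22_5 below the other 2, and the coefficient of variation, 64.5%, was the highest of the 10 genes in Th17 cells. The iTreg libraries had 0.212, 0.469, 0.943, and 0.604 FPKM, from 3 to 11 reads each. Libraries whose headings begin with M42 were the highest in both polarized groups and the lowest among the Th0 libraries. The log2 difference was 1.51 (SE 0.34) in Th17 and -0.66 (SE 0.17) in iTreg cells, and the former ranged from 1.18 without M42_5 to 1.79 without M22_5.

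Ablim1 links LIM domains to a headpiece that binds actin filaments, and its gene spans chromosome 19 from 57032733 to 57314919 on the minus strand. It had the highest level of the 10 genes in every group. Its Th0 libraries were at 61.9, 82.9, 61.5, and 65.4 FPKM, its Th17 libraries at 89.7, 106, 86.6, and 137 FPKM, and its iTreg libraries at 46.2, 52.3, 45.8, and 50.5 FPKM. The highest Th0 library, M29_1, was close to the lowest Th17 library, M42_5, without overlap. The mean level of Ablim1 was 1.54 times that of Th0 cells in Th17 cells and 0.725 times in iTreg cells. The log2 difference of 0.60 (SE 0.17) in Th17 cells was 0.47 without M43_5 and 0.70 without M29_1, and that in iTreg cells was -0.45 (SE 0.12).

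Map3k5, on chromosome 10 (19934472 to 20142753, plus strand), encodes ASK1, a kinase that activates the JNK and p38 pathways in response to oxidative and cytokine stress. In Th0 libraries it was at 9.28, 16.3, 9.92, and 9.12 FPKM, with M29_1 far above the other 3. Th17 libraries were at 21.4, 23.4, 17.3, and 20.1 FPKM, and iTreg libraries at 5.84, 6.01, 4.71, and 6.38 FPKM. M29_1 came within about 1 FPKM of the lowest Th17 library, yet the groups did not overlap. The log2 difference was 0.86 (SE 0.19) in Th17 and -0.81 (SE 0.18) in iTreg cells. Leaving out M29_1 changed these values to 1.04 and -0.62, so that this library brings the differences in the 2 directions closer to each other.

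Matk (chromosome 10, 81252935 to 81263365, plus strand) encodes a kinase related to CSK, which phosphorylates SRC-family kinases at an inhibitory tyrosine. It was among the lowest of the 10 genes, at 1.38, 1.53, 1.44, and 1.75 FPKM in Th0 libraries. Th17 libraries reached 4.06, 4.59, 3.72, and 2.67 FPKM, and iTreg libraries were at 0.984, 0.826, 1.05, and 0.720 FPKM, with 15 to 25 reads each. No library of one group reached into another, although M43 held both the lowest Th17 and the highest Th0 value. The difference was 0.90 (SE 0.14) in Th17 and -0.41 (SE 0.10) in iTreg cells on the log2 scale.

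Maml2, a Mastermind-like coactivator that binds to Notch intracellular domains on DNA, spans chromosome 9 from 13297957 to 13709388 on the plus strand. A predicted miRNA gene, Gm22643, overlaps 1.53% of its exonic bases, and strand was not used in counting. Its levels were tight, at 8.09, 9.81, 8.08, and 7.90 FPKM in Th0 and 14.6, 14.5, 14.5, and 17.0 FPKM in Th17 libraries. In iTreg libraries it was at 4.13, 4.88, 3.40, and 4.33 FPKM. Maml2 was the most nearly symmetric of the 10 genes besides Map3k5, with 1.79 times the Th0 mean in Th17 cells and 0.500 times in iTreg cells. Its log2 differences were 0.77 (SE 0.11) and -0.86 (SE 0.12).

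Trerf1, a zinc-finger regulator of transcription, lies on chromosome 17 (47140875 to 47361958, plus strand), where the annotation used here lists it as a processed transcript rather than a protein-coding gene. Its Th0 libraries were at 3.08, 3.59, 3.38, and 3.58 FPKM and its Th17 libraries at 12.6, 9.21, 8.56, and 8.41 FPKM. With a coefficient of variation of 6.94%, Trerf1 had the tightest Th0 values of the 10 genes. The iTreg libraries were at 2.74, 2.07, 2.05, and 2.46 FPKM, and the highest of them, M22_4, was only just below M22_1. The log2 differences were 1.26 (SE 0.13) and -0.40 (SE 0.10).

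Etv6, an ETS-family repressor, lies on chromosome 6 (134035700 to 134270158, plus strand), and an antisense gene, Gm17089, overlaps 2.26% of its exonic sequence, so that reads of the 2 cannot be told apart there. It had the smallest difference in Th17 cells. Th0 libraries were at 13.5, 14.1, 19.1, and 18.6 FPKM, with M22_1 and M29_1 below the other 2. Th17 libraries were at 19.8, 25.0, 22, and 22.6 FPKM, so that the lowest of them lay just above the highest Th0 library. In iTreg libraries the level was 9.36, 8.99, 10.2, and 11.1 FPKM. The log2 difference was 0.44 (SE 0.14) in Th17 cells and -0.64 (SE 0.14) in iTreg cells, which makes Etv6, with Maml2, a gene whose difference in iTreg cells was larger in size than that in Th17 cells.

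**Figure D1:**
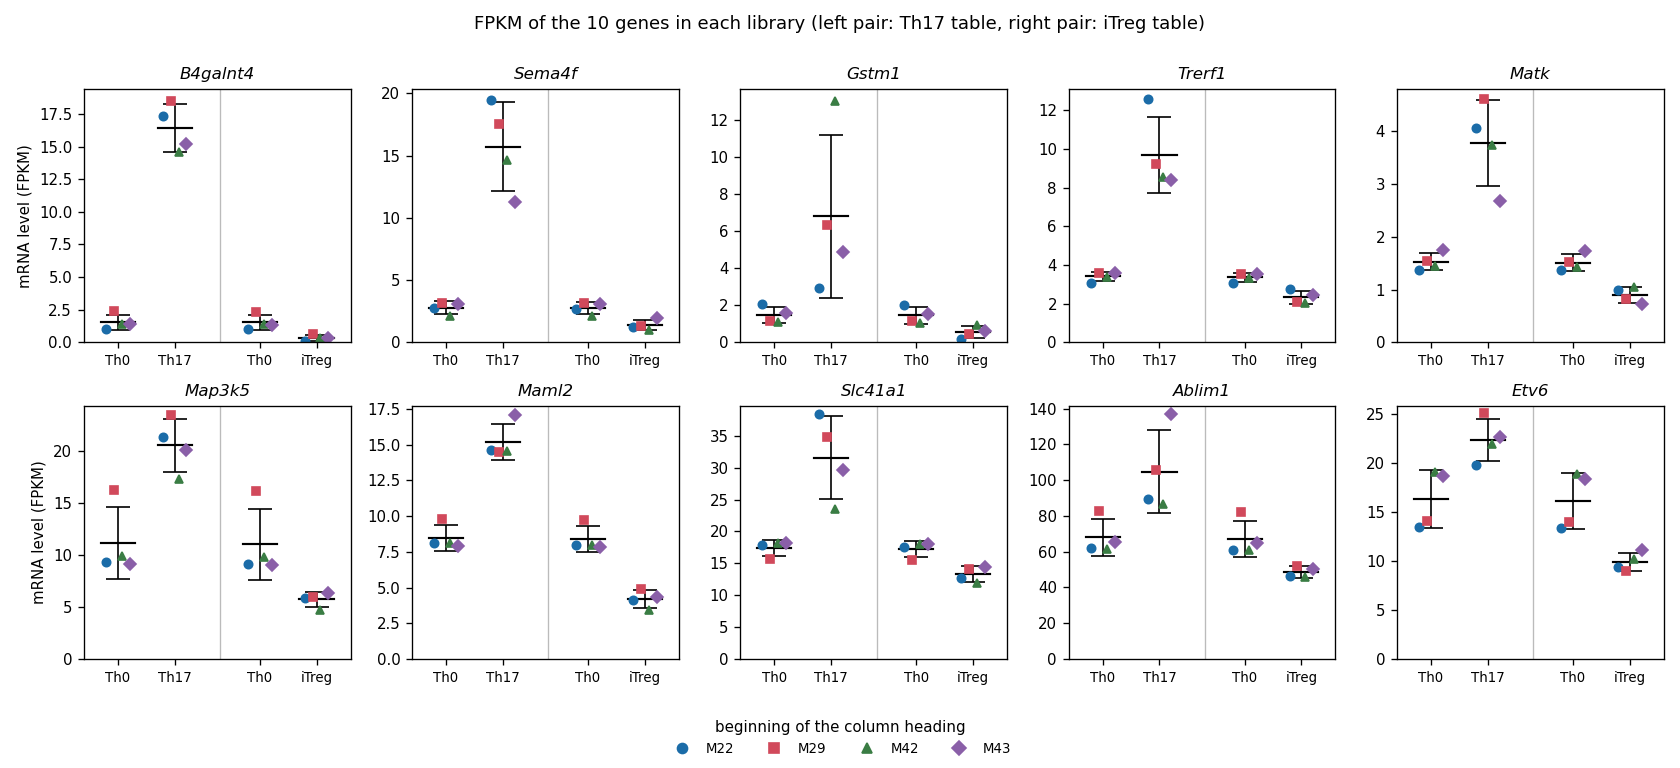
FPKM of each of the 10 genes (vertical axis, linear, from 0) in the 4 Th0 and 4 Th17 libraries of the Th17 table (left of the grey line) and the 4 Th0 and 4 iTreg libraries of the iTreg table (right), with marks by the beginning of the column heading and black lines for the mean ± SD of 4 libraries. In each panel the Th17 marks lie above all Th0 marks and the iTreg marks below them, with gaps that are narrow beside the levels for Etv6, Ablim1, and Map3k5 in Th17 cells and for Sema4f and Slc41a1 in iTreg cells.

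With limma on log2(FPKM + 1) and an FDR threshold of 0.05, 9 of the 10 genes were called higher in Th17 cells (all except Etv6), where 10.6% of the 10269 genes tested were called higher. All 10 were called lower in iTreg cells, where 8.21% of the 10208 genes tested were called lower. With the beginning of the column heading as a replicate block, 10 of 10 were called higher in Th17 cells (19.2% of all genes) and 10 of 10 lower in iTreg cells (20.0% of all genes), where 37.8% and 40.9% of all genes were called in either direction. None of the 10 had overlapping libraries in either comparison, where 13.2% of all genes had every Th17 library above and 11.0% had every iTreg library below the Th0 libraries. As the genes were chosen on these contrasts, the counts describe the choice. All 10 passed the filter of more than 1 FPKM in at least 4 of 8 libraries in both tables, but B4galnt4, Gstm1, and Matk did so in the iTreg table through their Th0 libraries.

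By rank of the log2 difference, the 10 genes were spread over the upper part of the Th17 comparison, from rank 77 (B4galnt4), 135 (Sema4f), and 245 (Gstm1) to rank 949 (Ablim1) and 1407 (Etv6) of 10269. Counted from the most negative difference, in the iTreg comparison they stood between rank 320 (B4galnt4) and rank 1556 (Slc41a1) of 10208, with Maml2 at 354 and Map3k5 at 420. B4galnt4 was first of the 10 in both orders. B4galnt4, Sema4f, Gstm1, Trerf1, Matk, Slc41a1, and Ablim1 had larger differences in Th17 than in iTreg cells on the log2(FPKM + 1) scale. Maml2 and Map3k5 had differences of like size in the 2 directions. The scale shrinks differences between low levels. With 0.1 in place of 1 added to FPKM, those of Gstm1 were 1.97 in Th17 and -1.33 in iTreg cells.

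**Figure D2:**
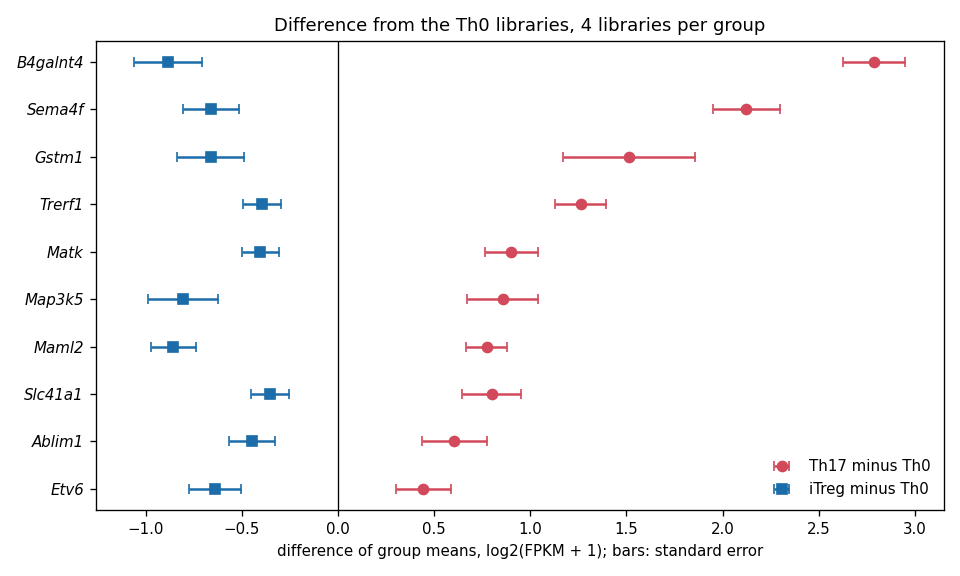
Difference of the group means from Th0 cells on the log2(FPKM + 1) scale (horizontal axis) for each of the 10 genes, with circles for Th17 and squares for iTreg cells and bars for the standard error from limma (4 libraries per group). The Th17 differences run from 0.44 (Etv6) to 2.79 (B4galnt4) and the iTreg differences from -0.35 (Slc41a1) to -0.89 (B4galnt4).

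The column headings begin with M22, M29, M42, or M43 in every group, and differences were also taken between libraries with the same beginning. In Th17 cells, 40 of 40 such differences (10 genes in 4 beginnings) were above 0, from 0.20 (Etv6 in M42) to 3.17 (B4galnt4 in M22). In iTreg cells, 40 of 40 were below 0, from -1.33 (Gstm1 in M22) to -0.09 (Gstm1 in M42). These signs follow from the choice of genes and the lack of overlap between their libraries, so that the counts could not come out otherwise. Gstm1 varied most, with 0.36 in M22, 1.20 in M43, 1.75 in M29, and 2.75 in M42 for Th17 cells. M22 gave Gstm1 its smallest difference in Th17 cells and its largest in iTreg cells, and M42 the reverse. For Map3k5, M29 gave the smallest difference in Th17 cells (0.50) and the largest in iTreg cells (-1.29), the beginning in which its Th0 level was high. Trerf1 had its largest difference in Th17 cells (1.73) and its smallest in iTreg cells (-0.11) in M22. There its Th0 level was the lowest, and its Th17 and iTreg levels, 12.6 and 2.74 FPKM, were the highest of their groups. Since both comparisons subtract the same Th0 library, a high Th0 value makes the first difference smaller and the second larger in size at once.

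**Figure D3:**
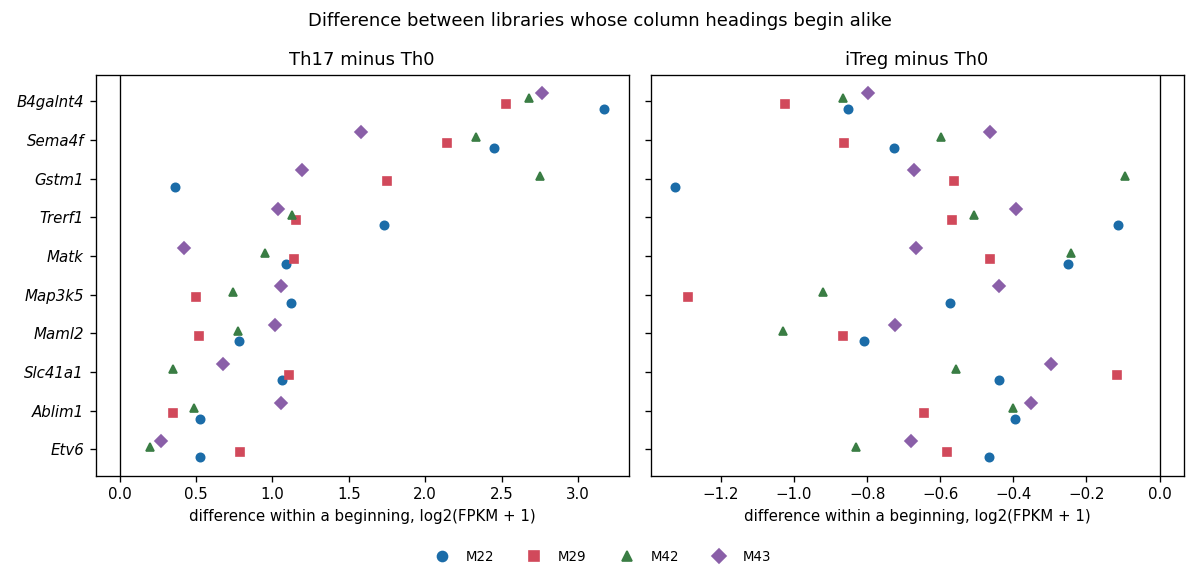
Differences from the Th0 library with the same beginning of the column heading, on the log2(FPKM + 1) scale (horizontal axis), for each of the 10 genes in Th17 cells (left) and iTreg cells (right), with a mark for each of the 4 beginnings. All 40 marks are right of 0 in Th17 cells and all 40 left of 0 in iTreg cells, and Gstm1 spreads most, from 0.36 to 2.75 in Th17 cells. The sides of 0 follow from the lack of overlap between the libraries of these genes.

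Libraries also differed over the 10 genes together. In the Th17 library M29_5, 8 of the 10 genes were above their Th17 mean, and in M42_5, 8 of the 10 were below it. Among Th0 libraries, M29_1 had 7 genes above the mean, while M22_1 and M42_1 had 8 genes below it. In the iTreg library M43_4, 9 of the 10 were above the iTreg mean. The median shift of the 10 genes in a library was at most 0.16 on the log2 scale in size, which is less than every one of their differences between groups.

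FPKM is scaled to length, and levels can be ordered between genes. In Th0 cells the order of mean levels (Th17 table) was Ablim1 (67.9 FPKM), Slc41a1 (17.5), Etv6 (16.3), Map3k5 (11.1), Maml2 (8.47), Trerf1 (3.41), Sema4f (2.79), B4galnt4 (1.55), Matk (1.52), and Gstm1 (1.48). Neighbours in this order overlapped between libraries, apart from the steps from Ablim1 to Slc41a1 and from Maml2 to Trerf1. In Th17 cells B4galnt4 (16.4 FPKM) and Sema4f (15.7) moved up past Trerf1 (9.69) and Maml2 (15.2) to follow Ablim1 (105), Slc41a1 (31.6), Etv6 (22.4), and Map3k5 (20.5), and Gstm1 (6.80) passed Matk (3.76). The libraries of B4galnt4, Sema4f, and Maml2 overlapped in this group, as did those of Gstm1 with both Trerf1 and Matk. In iTreg cells the first 7 genes kept the order of Th0 cells, at 48.7, 13.3, 9.90, 5.74, 4.19, 2.33, and 1.38 FPKM, and Matk (0.895), Gstm1 (0.557), and B4galnt4 (0.363) followed with overlapping libraries. Among all tested genes, B4galnt4 stood at percentile 5.57 in Th0 cells, 53.6 in Th17 cells, and 0.0686 in iTreg cells, while Ablim1 stood at 89.9, 94.5, and 84.0. Genes low in both groups of a table are left out of this ranking by the filter. B4galnt4 entered the iTreg ranking through its Th0 libraries only, so that its place near the bottom there follows from the filter.

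In all, 20 of the 10079 genes tested in both tables (0.198%) were called higher in Th17 and lower in iTreg cells, namely 9 of the 10 genes and 11 others. The opposite pattern was called for 5 genes (0.0496%). With the replicate block these counts were 88 (0.873%), which include all 10 genes, and 72 (0.714%). Without the Th0 library M43_1 the first count was 8, with 4 of the 10 genes among them. Of the 10 genes, 4 had both calls without M43_4, 5 without M29_4, 6 without M22_1, M22_4, M42_1, or M42_4, and 8 or 9 without any other library, and 1 had both at an FDR of 0.01. By no overlap between libraries, 34 genes (0.337%) had the pattern and 19 (0.189%) the opposite. Thus the 10 genes are a selection from those with the pattern, and the rule set no limit of size between genes inside and outside it.

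Of the 11 others, which the same contrasts chose and which are likewise given without a test, the 5 with the largest values of the smaller difference were Pou2af1, Satb1, Bcl6, Zc3h12d, and Hif1a. Pou2af1, a coactivator of octamer-binding factors, had a mean of 57.7 FPKM in Th0, 113 in Th17, and 19.6 in iTreg cells. For Satb1, which organizes chromatin in developing and naive T cells, the means were 45.6, 88.2, and 22 FPKM. Bcl6, the repressor that directs follicular helper T cells, was at 7.92, 31, and 4.70 FPKM. Zc3h12d, an RNA-binding protein of the Regnase family, was at 81.6, 121, and 36.4 FPKM, and Hif1a, the oxygen-regulated factor, at 113, 213, and 75.6 FPKM. On the log2(FPKM + 1) scale, the differences of Pou2af1, Zc3h12d, and Satb1 in iTreg cells were -1.54, -1.13, and -1.05. These were larger in size than that of each of the 10 genes on this scale, which shrinks differences between low levels. With 0.1 in place of 1 added to FPKM, the differences of B4galnt4 and Gstm1 in iTreg cells were -1.90 and -1.33. Their mean iTreg levels were 0.236 and 0.382 times the Th0 mean. The other 6 of the 11 genes were Rnf19a, Ksr1, Unc119b, Fam102a, Stoml1, and Fam168a.

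Satb1 is also among 10 markers of naive T cells examined beside these results. Their summed level was 493 to 856 FPKM in Th0 and 650 to 1354 FPKM in Th17 libraries of the Th17 table. In the iTreg table it was 487 to 848 FPKM in Th0 and 430 to 804 FPKM in iTreg libraries. In Th17 cells 3 of the 10 markers were called higher (S1pr1, Il7r, and Satb1) and 1 lower (Lef1), with 7 and 1 under the replicate block. In iTreg cells 2 (Lef1 and Satb1) were called lower and 0 higher by limma (2 and 0 at an unadjusted p under 0.05), with 3 lower and 1 higher under the block. Over all genes, 10.6% were called higher and 8.69% lower in Th17 cells, and 8.36% and 8.21% in iTreg cells. Under the block these shares were 19.2% and 18.6%, and 20.9% and 20.0%. Whether naive T cells that remained in the cultures have a part in the levels of the 10 genes was not tested.

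The profiles of the 10 genes over 16 values (log2(FPKM + 1) minus the Th0 mean of the same table, 8 libraries per table) had Pearson correlations between 0.734 and 0.983, with a median of 0.870 over 45 pairs. These values include the 4 Th0 libraries in both tables and follow from the choice of genes. Gene by gene, B4galnt4 was closest to the mean profile of the 10 (r = 0.982), and Etv6 (0.873) and Gstm1 (0.876) were farthest from it. Of all other tested genes, Sesn3, a stress-induced regulator of mTORC1, was most like the mean profile (0.971) and most like both B4galnt4 (0.991) and Sema4f (0.976). Sesn3 was at 49.3 ± 5.0 FPKM (SD, n = 4) in Th0, 114 ± 6.4 in Th17, and 38.3 ± 4.3 in iTreg cells. Next to Sesn3 stood Tspan5 (0.958), Fndc9 (0.944), Bcl6 (0.940), and Unc119b (0.938). The gene most like Matk was Bcl6 (0.967), that most like Trerf1 was Nr2f6 (0.964), that most like Maml2 was Zc3h12d (0.958), and that most like Gstm1 was Cltb (0.954). Etv6 was most like Fbxo21 (0.952), Map3k5 most like Unc119b (0.942), Slc41a1 most like Gzf1 (0.938), and Ablim1 most like Fam102a (0.934).

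Genes nearest to the 10 genes on the chromosome among those tested were not part of the choice, and their differences were taken from the fit over all genes. They lie 1.35 to 2647 kb away. Of 20 nearest tested neighbours, 0 were called higher and 2 lower in Th17 cells, and 1 was called higher and 3 lower in iTreg cells, so that no neighbour had both directions of the gene beside it by limma. At an unadjusted p under 0.05, 1 was higher and 3 were lower in either comparison, and under the replicate block 1 was higher and 5 lower in Th17 cells and 1 higher and 9 lower in iTreg cells. Over all genes, limma called 10.6% higher and 8.69% lower in Th17 cells, and 8.36% and 8.21% in iTreg cells. Under the block these shares were 19.2% and 18.6% in Th17 cells, and 20.9% and 20.0% in iTreg cells. The share of all genes at an unadjusted p under 0.05 is not given here. Under the replicate block Csf1, beside Gstm1, had both directions of Gstm1 (adjusted p = 0.00099 in Th17 and 0.0032 in iTreg cells, limma), with log2 differences of 0.92 (SE 0.28) and -0.61 (SE 0.27) that missed the threshold without the block (adjusted p = 0.051 and 0.17). Csf1 encodes the macrophage growth factor M-CSF and lies 252 kb from Gstm1. Ifitm2, an interferon-induced membrane protein gene 105 kb from B4galnt4, fell from 66.5 ± 21 FPKM (SD, n = 4) in Th0 to 1.19 ± 0.97 FPKM in Th17 cells (log2 difference -4.99, adjusted p = 2.5e-05, limma), and also fell in iTreg cells (-2.34, adjusted p = 0.0047). Pkp3, a desmosomal plakophilin gene 5.82 kb on the other side of B4galnt4, fell in iTreg cells (log2 difference -0.48, adjusted p = 0.0069, limma) and had a difference of 0.13 (adjusted p = 0.52) in Th17 cells. Atcay, which lies 22.1 kb from Matk, fell in both, by 1.17 in Th17 (adjusted p = 0.00051, limma) and by 1.25 in iTreg cells (adjusted p = 0.0026). Map7, 5.72 kb from Map3k5, encodes a microtubule-associated protein and rose in iTreg cells (0.93, adjusted p = 0.026, limma).

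Relatives of the 10 genes by family or pathway were also examined in the fit over all genes, with the 10 genes themselves left out. Over 10 lists, 147 relatives were tested in each comparison. In Th17 cells 22 were called higher and 23 lower, and in iTreg cells 19 higher and 23 lower. Over all genes tested, 10.6% were called higher and 8.69% lower in Th17 cells, and 8.36% and 8.21% in iTreg cells. With the replicate block, 37 relatives were called higher and 36 lower in Th17 cells (19.2% and 18.6% of all genes), and 36 and 38 in iTreg cells (20.9% and 20.0%). Of 142 relatives tested in both tables, 0 were called higher in Th17 and lower in iTreg cells by limma, 3 at an unadjusted p under 0.05 (Dusp10, Dusp16, and Gsr), and 2 under the replicate block (Dusp10 and Dusp16). All 58 calls of the relatives chosen by rule for naming had the same direction within all 4 beginnings of the column headings. As calls and large differences on these same libraries chose them, this count follows largely from the choice.

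**Figure D4:**
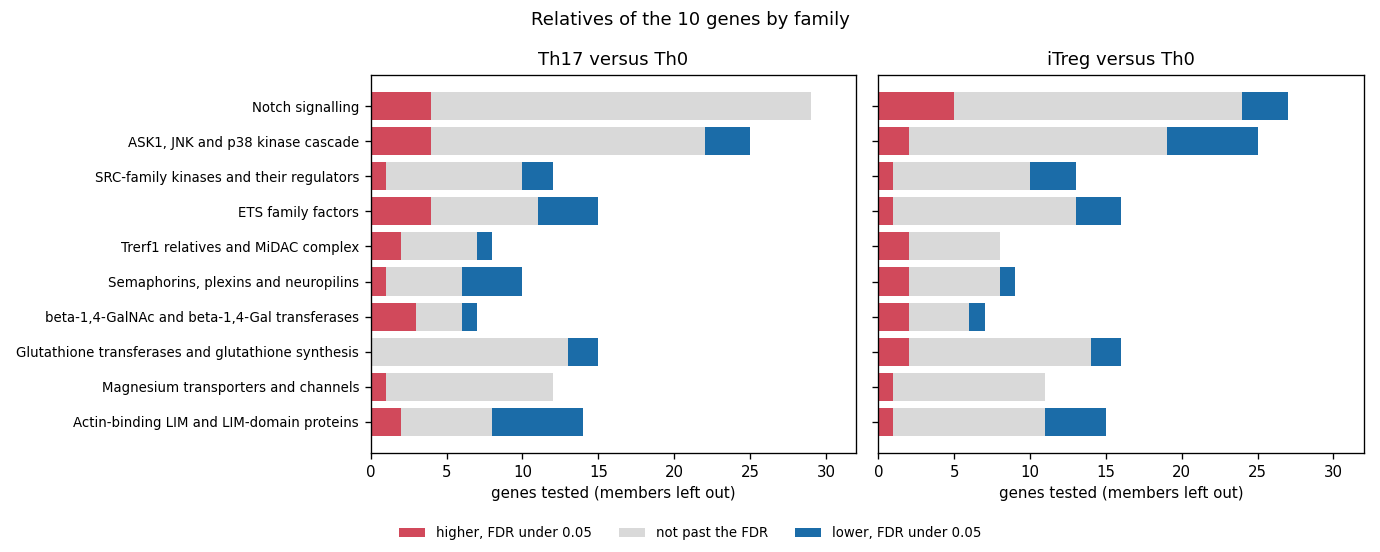
Number of relatives tested (horizontal axis) in each of 10 family lists in Th17 (left) and iTreg cells (right), with the 10 genes left out, divided into those called higher (red), not past the FDR threshold of 0.05 (grey), and called lower (blue) by limma. The lists hold calls in both directions in most families, and Notch signalling has 4 higher and 0 lower in Th17 cells.

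Maml2 acts with Notch receptors, which are cleaved upon ligand binding and then bind RBPJ on DNA. Of 29 tested genes of Notch signalling, 4 were called higher and 0 lower in Th17 cells by limma (6 and 1 at an unadjusted p under 0.05, 10 and 4 under the block), and in iTreg cells 5 of 27 were higher and 3 lower. Nrarp, a Notch target that feeds back on the pathway, rose from 1.08 ± 0.18 FPKM (SD, n = 4) to 8.81 ± 2.5 FPKM in Th17 cells (log2 difference 2.21, SE 0.18, adjusted p = 7.3e-05, limma). In iTreg cells Nrarp rose as well, to 4.14 ± 0.78 FPKM (1.31, SE 0.13, adjusted p = 0.00035), which is not the direction of Maml2. Dtx4, a Deltex ubiquitin ligase, likewise rose in both, by 1.53 in Th17 (adjusted p = 2.1e-05, limma) and by 0.84 in iTreg cells (adjusted p = 0.00031). Rbpj rose in iTreg cells (1.08, SE 0.29, adjusted p = 0.037, limma), and in Th17 cells had a difference of 0.53 with an adjusted p of 0.26, or 0.0061 under the block. Numbl, related to the Notch antagonist Numb, rose in Th17 cells (0.94, adjusted p = 0.0025, limma) and was below the filter in the iTreg table.

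In the kinase cascade of Map3k5, 4 of 25 relatives were called higher and 3 lower in Th17 cells, and 2 higher and 6 lower in iTreg cells. Mapkapk3, a kinase downstream of p38, rose in both groups, from 45.7 ± 13 to 86.9 ± 19 FPKM (SD, n = 4) in Th17 cells (log2 difference 0.93, adjusted p = 0.034, limma) and to 196 ± 20 FPKM in iTreg cells (2.13, adjusted p = 0.00032). Map2k3, which activates p38, rose in iTreg cells (1.22, SE 0.20, adjusted p = 0.0044, limma), with a difference of 0.44 in Th17 cells (adjusted p = 0.24, or 0.023 under the block). Mapk12, the gamma isoform of p38, fell in both, by 1.93 in Th17 (adjusted p = 0.0073, limma) and by 1.72 in iTreg cells (adjusted p = 0.011). Map3k8, another kinase at the level of Map3k5, also fell in both, by 1.20 (adjusted p = 0.0031, limma) and 1.14 (adjusted p = 0.0047). Dusp10 and Dusp16, phosphatases that inactivate JNK and p38, rose in Th17 cells by 0.71 and 0.59 (adjusted p = 0.032 and 0.049, limma). Their differences in iTreg cells, -0.47 and -0.34, had adjusted p of 0.065 and 0.099, and both passed under the block.

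Matk and CSK restrain SRC-family kinases, of which Lck and Fyn act at the T cell receptor. Of 12 relatives in this list 1 was called higher and 2 lower in Th17 cells, and of 13 in iTreg cells 1 higher and 3 lower. Src rose from 0.371 ± 0.12 to 3.27 ± 1.8 FPKM (SD, n = 4) in Th17 cells (log2 difference 1.53, SE 0.30, adjusted p = 0.0082, limma) and to 7.20 ± 1.8 FPKM in iTreg cells (2.56, SE 0.17, adjusted p = 3.6e-05). Fyn fell in both groups, by 0.60 (adjusted p = 0.0055, limma) and by 0.48 (adjusted p = 0.0089). Ptpn6, the phosphatase SHP-1, fell in Th17 cells by 0.79 (adjusted p = 0.0043, limma), with -0.37 in iTreg cells (adjusted p = 0.14, or 0.0051 under the block). Cblb, a ubiquitin ligase that limits T cell activation, fell in iTreg cells by 1.12 (adjusted p = 0.0029, limma) and had a difference of -0.41 in Th17 cells (adjusted p = 0.12).

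Among ETS factors other than Etv6, 4 of 15 were called higher and 4 lower in Th17 cells, and 1 of 16 higher and 3 lower in iTreg cells. Etv5 fell in both groups, by 1.20 in Th17 (adjusted p = 0.0046, limma) and by 0.76 in iTreg cells (adjusted p = 0.0051). Erf, a repressor of the family, fell by 0.74 (adjusted p = 0.0026, limma) and 0.72 (adjusted p = 0.0028). Elk1 rose in Th17 cells by 0.79 (adjusted p = 0.0075, limma), and its difference of 0.37 in iTreg cells had an adjusted p of 0.11. Etv4 fell by 0.99 in Th17 cells (adjusted p = 0.047, limma), with -0.48 in iTreg cells (adjusted p = 0.39, or 0.0062 under the block). Trerf1 is related to the scaffold of a histone deacetylase complex, MiDAC. Of the 8 genes in its list, Mta3 and Elmsan1 rose in both groups, Mta3 by 1.17 (adjusted p = 0.00083, limma) and 0.82 (adjusted p = 0.0024), and Elmsan1 by 0.78 (adjusted p = 0.0040) and 0.94 (adjusted p = 0.0061). Hdac1 fell in Th17 cells by 0.43 (adjusted p = 0.043, limma).

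Of the semaphorins, plexins, and neuropilins beside Sema4f, 1 of 10 was called higher and 4 lower in Th17 cells, and 2 of 9 higher and 1 lower in iTreg cells. Sema7a, a membrane-anchored semaphorin, rose from 3.40 ± 2.1 to 33.7 ± 15 FPKM (SD, n = 4) in Th17 cells (log2 difference 3.0, SE 0.34, adjusted p = 0.00043, limma). It also rose in iTreg cells, to 20.9 ± 6.1 FPKM (2.39, SE 0.30, adjusted p = 0.0010). Nrp1, a semaphorin coreceptor and marker of thymic regulatory T cells, fell in Th17 cells by 2.36 (adjusted p = 0.0088, limma) and had a difference of 0.29 (SE 0.57, adjusted p = 0.79) in iTreg cells. Plxnc1, the receptor of Sema7a, fell in both groups, by 1.67 (adjusted p = 0.00064, limma) and 1.94 (adjusted p = 0.00019). Sema4a fell in Th17 cells by 1.26 (adjusted p = 0.033, limma), opposite to Sema4f in that group.

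Of 7 transferases for beta-1,4-linked galactose or N-acetylgalactosamine beside B4galnt4, 3 were called higher and 1 lower in Th17 cells, and 2 higher and 1 lower in iTreg cells. B4galnt1, which makes complex gangliosides, fell in both groups, from 110 ± 30 to 50.1 ± 8.8 FPKM (SD, n = 4) in Th17 cells (log2 difference -1.10, SE 0.19, adjusted p = 0.0047, limma) and to 61.6 ± 8.3 FPKM in iTreg cells (-0.79, adjusted p = 0.019). B4galt1 rose in both, by 1.01 (adjusted p = 0.018, limma) and 1.73 (adjusted p = 0.0012). B4galt7 rose by 0.68 (adjusted p = 0.049, limma) and 0.62 (adjusted p = 0.023), and B4galt3 by 0.62 in Th17 cells (adjusted p = 0.046, limma).

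Around Gstm1, 0 of 15 genes of glutathione conjugation and synthesis were called higher in Th17 cells by limma and 2 lower, and in iTreg cells 2 of 16 were higher and 2 lower. In Th17 cells 2 were higher and 2 lower at an unadjusted p under 0.05, and 1 higher and 3 lower under the block, which gave 5 and 3 in iTreg cells. Gstt3 and Gstt2, theta-class transferases, fell in both groups, Gstt3 from 7.54 ± 3.3 to 0.497 ± 0.16 FPKM (SD, n = 4) in Th17 cells (adjusted p = 0.00045, limma) and to 1.55 ± 1.1 FPKM in iTreg cells (adjusted p = 0.015). Gstt2 fell by 1.81 (adjusted p = 0.00066, limma) and 1.16 (adjusted p = 0.0098). Mgst3, a microsomal transferase, rose in iTreg cells by 1.27 (adjusted p = 0.021, limma), with 1.04 in Th17 cells (adjusted p = 0.053, or 0.0021 under the block). Gsto1 rose in iTreg cells by 0.75 (adjusted p = 0.015, limma). Gstm4, the neighbour of Gstm1 and a gene of its class, had differences of -0.22 (SE 0.17, adjusted p = 0.43, limma) and -0.14 (SE 0.20, adjusted p = 0.70).

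For Slc41a1, 1 of 12 magnesium transporters and channels was called higher in Th17 cells and 0 lower by limma, and 1 of 11 higher and 0 lower in iTreg cells. At an unadjusted p under 0.05 3 were higher in Th17 and 1 in iTreg cells, under the block 3 and 2, and in both settings 0 were lower. The called gene was Nipal1 in both, which rose from 1.32 ± 0.84 to 13.2 ± 4.6 FPKM (SD, n = 4) in Th17 cells (log2 difference 2.62, SE 0.30, adjusted p = 0.00047, limma) and to 3.44 ± 0.51 FPKM in iTreg cells (1.01, SE 0.24, adjusted p = 0.022). Among 14 LIM-domain genes beside Ablim1, 2 were called higher and 6 lower in Th17 cells, and of 15 in iTreg cells 1 was higher and 4 lower. Pdlim5, which ties LIM domains to the Z-disc and actin, rose from 8.29 ± 0.38 to 64.5 ± 6.5 FPKM (SD, n = 4) in Th17 cells (2.81, SE 0.10, adjusted p = 1.3e-06, limma) and to 94.6 ± 5.8 FPKM in iTreg cells (3.38, SE 0.09, adjusted p = 4.7e-07). Csrp1 fell in Th17 cells by 1.23 (adjusted p = 0.018, limma), with -0.63 in iTreg cells (adjusted p = 0.11, or 0.0044 under the block). Limd2 fell in both, by 0.76 (adjusted p = 0.0078, limma) and 0.73 (adjusted p = 0.0059), and so did Pdlim1, by 0.52 (adjusted p = 0.041) and 0.68 (adjusted p = 0.0096).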

How the data were processed

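RNA-seq of 4 Th0, 4 Th17, and 4 iTreg cultures was analysed, grouped by the sample labels. Per the labels and the methods of the study, the authors mapped paired-end reads with TopHat 2.0.14 to mm10, obtained exon counts with HTSeq-count ignoring strand, removed genes with low CPM, and tested counts with edgeR pair-wise. They deposited FPKM for 8 libraries in each of 2 tables, scaled separately. The sources used here do not give the FPKM calculation or the annotation. The log2 fold change, log2 CPM, likelihood-ratio score, p-value, and FDR columns that the authors deposited were not used. The unit is taken from the supplementary tables of the study, which print the same columns as FPKM.

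Here, genes over 1 FPKM in at least 4 of 8 libraries entered an unpaired limma fit (3.58.1, R 4.3.3) of log2(FPKM + 1), and p-values were adjusted by Benjamini-Hochberg with a threshold of 0.05. In simulated libraries, 69% of 2-fold and 94% of 4-fold changes were found among the 10269 genes of Th17 versus Th0 (4.68% false calls) and 78% and 97% among the 10208 of iTreg versus Th0 (3.85%). Changes were planted only in genes above a minimum Th0 level, and the simulated libraries varied independently of each other. B4galnt4, Sema4f, Gstm1, and Matk lay below that level, so that the rates do not cover them. Column headings give the group but no experiment number. Libraries with the same beginning of the heading deviated together from their group means (correlations of 0.450 to 0.784 in the Th17 and 0.662 to 0.769 in the iTreg table, all over 0.1), and these beginnings served as the replicate block. The p-values without the block take such shared differences as spread. Whole reads were recovered from FPKM steps within 0.01 reads, up to a factor common to all libraries of a table, and Th0 reads were equal in both tables for 99.3% of 10873 genes. They were used as read support only, and cover counting error only.

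The 10 genes and the lists of relatives and markers were chosen with earlier results of these data known. Relatives named are, per list, up to 4 with a call and the largest difference. Neighbours are the nearest tested genes on each side, with those called named, and likeness is by Pearson r. Csf1, Gstm4, Dusp10, Dusp16, Gsr, S1pr1, Il7r, Lef1, Cd68, and Cd79a were named after their values were seen, as were the 6 of the 11 further genes that are listed by name only. A marker gene of the lists is not reported here. Coordinates are from GENCODE M21 (GRCm38). Alternatives were a pseudocount of 0.1, no filter, limma with trend, an FDR of 0.01, the block, and leaving out each library. Tallies used Python 3.11.15, numpy 2.4.6, and pandas 2.3.3, and plots matplotlib 3.10.9.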

Additional observations from a re-analysis of the deposited data

Results flagged for a closer look

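Of 30 sets of 4 libraries (10 genes in Th0, Th17, and iTreg cells), 4 held a library that stood apart from the other 3 by Dixon's criterion at 95%, which chance gives in about 1 in 20 sets. Map3k5 was at 16.3 FPKM in the Th0 library M29_1, where the other Th0 libraries were at 9.12 to 9.92 FPKM. Maml2 was at 9.81 FPKM in the same library, where the others were at 7.90 to 8.09 FPKM. Slc41a1 was at 15.6 FPKM in M29_1, below the others at 17.8 to 18.2 FPKM. Maml2 was also high in the Th17 library M43_5, at 17.0 FPKM, where the others were at 14.5 to 14.6 FPKM. Thus 3 of the 4 sets concern M29_1, and without this library the log2 difference of Map3k5 was 1.04 in Th17 and -0.62 in iTreg cells, that of Maml2 in Th17 cells 0.84, and that of Slc41a1 in iTreg cells -0.40.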

How the results depend on the processing

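Directions of all 10 genes remained under every alternative run, which the lack of overlap between their libraries fixes in advance. The pseudocount of 0.1 moved 9 of the differences by more than the spread between libraries, all away from 0. These were, in Th17 cells, B4galnt4 (3.37), Sema4f (2.44), Trerf1 (1.46), and Matk (1.23), and in iTreg cells B4galnt4 (-1.90), Gstm1 (-1.33), Sema4f (-0.97), Matk (-0.70), and Trerf1 (-0.52). With the replicate block, genes called rose from 1983 to 3882 in Th17 and from 1691 to 4170 in iTreg cells, relatives called from 45 to 73 and from 42 to 74, and genes higher in Th17 and lower in iTreg cells from 20 to 88. At an FDR of 0.01 the same counts were 995, 778, 26, 23, and 1. Leaving out a library gave 1364 (M22_5) to 2237 (M42_5) and 1140 (M22_4) to 1521 (M29_1) genes, 31 to 45 and 26 (M22_4) to 36 relatives, and 8 (M43_1) to 21 (M42_5) genes with both directions, with 10 without M22_1, M42_1, or M43_4, 11 without M22_4, M29_1, or M42_4, 12 without M29_5, and 13 without M22_5. Low read numbers limit B4galnt4 and Gstm1 in iTreg cells most, with 4 to 20 and 3 to 11 reads per library.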

Other observations

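The 5 genes called with the opposite pattern, lower in Th17 and higher in iTreg cells, were Dusp5, Phldb1, Fam46a, Rasgef1b, and Ncf1, and their values are given as a description. Dusp5, a nuclear phosphatase of ERK, was at 33.7 FPKM in Th0, 16 in Th17, and 61.5 in iTreg cells. For Ncf1, a subunit of the phagocyte NADPH oxidase, the means were 4.48, 1.15, and 10.5 FPKM. Fam46a was at 2.58, 0.999, and 14.4 FPKM, Phldb1 at 3.27, 1.27, and 9.85 FPKM, and Rasgef1b, an exchange factor of the RAS family, at 17.2, 6.33, and 28.6 FPKM.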
